A study of Caenorhabditis elegans with 2 samples.

Results

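The 10 genes described here build and run the inner face of the Caenorhabditis elegans intestine. They were taken by gene symbol from the array's probe-to-gene table, using probe sets assigned to a single gene. All 10 were found, with 14 probe sets, among 17118 genes on the array. They comprise the GATA transcription factor genes elt-2 and elt-7, the lumen cytoskeleton genes act-5, erm-1, ifb-2 and ifc-2, the transporter genes pept-1, nhx-2 and pgp-1, and the gut esterase gene ges-1. The rule that chose them names roles and uses no measured value, but it was written with earlier results of these data known.

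The study set RNA of worms grown with a-SWCNT, amide single-walled carbon nanotubes, against RNA of worms grown without them. The a-SWCNT worms were wild-type N2 animals exposed to 500 μg/mL from the synchronised L1 larva for 48 hr at 22 °C. Control worms were N2 animals kept for 48 hr at 22 °C without a-SWCNT, and both samples were whole worms labelled as L4, the last larval stage. The strain was maintained at 13 °C. The sources used here do not give how many cultures went into each RNA. Each group had 1 oligonucleotide array, so no value has a replicate, an error between cultures or a p-value, and precision is limited by having 2 arrays in all.

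The intestine of the worm is a tube of large polarised cells whose lumen is lined by actin-filled microvilli, the brush border. Beneath the microvilli a sheath of intermediate filaments, the endotube, stiffens the lumen, and the ERM protein ties actin to the apical membrane. Peptides enter across this membrane together with protons, which a sodium-proton exchanger helps to remove. GATA factors switch on intestinal genes and keep them on through life, with ELT-2 as the main factor of the differentiated gut and ELT-7 acting beside it.

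The members differed little between the arrays. After scaling, 7 of 10 had a log2 ratio of a-SWCNT over control above 0 and 3 below, against 47.9% above 0 and 52.1% below 0 among 9382 measured genes. None reached a 2-fold difference, with 0 members past it upward and 0 downward, where 1.42% of measured genes lay at or above 2-fold and 2.86% lay as far below. That split was 2.31% and 1.78% with equal 75th percentiles and 0.755% and 5.29% with equal hybridisation controls. Their median log2 ratio was 0.20, or 1.15-fold, beside -0.021 for all measured genes. The ratios ran from -0.43 for nhx-2 to 0.91 for pept-1.

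Signals are MAS5 values in arbitrary units. The a-SWCNT array was dimmer, with a trimmed mean of 83.3 against 208.6 on the control array, and was multiplied by 2.50 to bring both to the same trimmed mean. A signal at or above a floor of 56.7, the median of all scaled worm signals, is called measured, and lower signals were raised to the floor before ratios were taken. A rough guide to error within the arrays comes from 1626 genes that were read by 2 measured probe sets. Their 2 log2 ratios were a median of 0.42 apart, and 1.37 apart at the 95th percentile. This distance is not error alone, because it also holds any steady offset between kinds of probe set. Such an offset, described below, was seen for the probe sets with the lowest identifier numbers. By this guide 2 members, pept-1 and pgp-1, lay more than 0.42 above 0, against 14.7% of measured genes. Only nhx-2, 1 of 10 members, lay more than 0.42 below 0, against 18.9%, and the 7 others lay within that distance, against 66.4%. These counts hold for the scaling used, because elt-2 (0.42) and nhx-2 (-0.43) lay close to the limit. With equal medians elt-2 stood at 0.49 and nhx-2 at -0.35. Intestinal RNA was read in whole worms, so fewer cells of a type and less RNA per cell cannot be told apart.

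**Figure D1:**
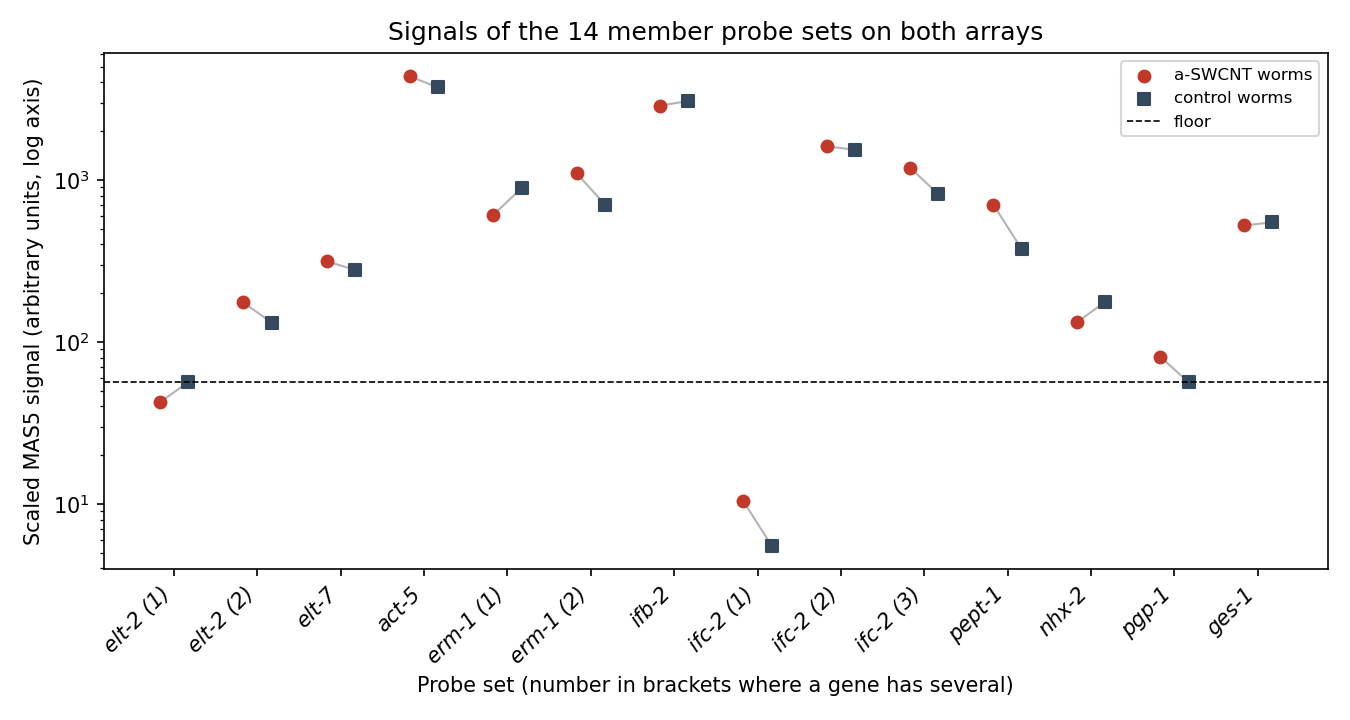
Scaled MAS5 signal (log axis) of the 14 member probe sets in a-SWCNT worms (circles, left of each pair) and control worms (squares, right), with the floor of 56.7 as a dashed line. Most pairs lie close together, and the erm-1 probe sets point in opposite directions. The pept-1 pair is wide, with 701 in a-SWCNT worms against 373 in control worms. Similarly wide is the ifc-2 pair 171840_x_at under the floor, with 10.4 in a-SWCNT worms against 5.52 in control worms.

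Both GATA factor genes of the differentiated intestine were slightly higher in a-SWCNT worms. ELT-2 is the factor that most intestinal genes depend on. Its readable probe set, 193259_at, had a signal of 175 in a-SWCNT worms and 131 in control worms, 1.34-fold higher (log2 ratio 0.42), and 84.9% of measured genes had a lower ratio. Its other probe set, 175269_at, had 42.3 in a-SWCNT worms and 56.4 in control worms, both below the floor, so no fold is given. For elt-7 the signal was 314 in a-SWCNT worms and 278 in control worms, 1.13-fold higher (0.18). With the scaling used, neither log2 ratio exceeded the 0.42 by which probe sets of a gene commonly differ. That of 193259_at lay close to this limit. It was 0.49 with equal medians, 0.54 with equal 75th percentiles, 0.56 after quantile normalisation and 0.54 under loess. The ratio of elt-7 turned to -0.016 when the arrays were scaled to the hybridisation controls. Under that scaling 175269_at counted as measured, at -0.091, and the mean for elt-2 fell to 0.067.

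The other GATA factor genes did not share a direction. Of the 10 on the list of factors of endoderm, intestine and epidermis, 8 had a single-gene probe set and 5 were measured, 2 of them above 0 and 3 below, with 0 at 2-fold. Their median was -0.12, and it lay between -0.32 and 0.0031 over the 6 scalings. It also depended on the lowest-numbered probe sets of the array (identifiers 171720 to 175999), which are described below. Without them 5 genes were measured, 3 above 0 and 2 below, at a median of 0.15. The MED and END factors, which act in the early embryo to specify endoderm, were below the floor on both arrays for med-1, end-1 and end-3. The lowest was elt-3, an epidermal factor, with 280 and 348 in its probe sets in a-SWCNT worms against 490 and 557 in control worms, a mean log2 ratio of -0.74. Both probe sets of elt-3 thus went the same way. The epidermal specification gene elt-1 followed at -0.32, while elt-6, a factor of the seam cells, stood at 0.23 and egl-27 at -0.12. The value of egl-27 is the mean of -0.42 in a lowest-numbered probe set and 0.17 in the other measured one.

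The lumen cytoskeleton genes had values between -0.096 and 0.31, and ifc-2 and erm-1 differed between their probe sets. ACT-5 is the actin of the microvilli. Its probe set had 4347 in a-SWCNT worms and 3719 in control worms, 1.17-fold higher (log2 ratio 0.23). IFB-2 is the filament protein with which the other endotube filaments assemble. Its signal was 2872 in a-SWCNT worms and 3069 in control worms, 1.07-fold lower (-0.096), and its ratio turned to 0.032 with equal 75th percentiles. Both genes thus lay within the spread between probe sets of a gene.

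The filament gene ifc-2, whose product is needed for a regular lumen, had 3 probe sets. Probe set 193073_at had 1190 in a-SWCNT worms and 813 in control worms, 1.46-fold higher (log2 ratio 0.55). Probe set 174548_at had 1610 in a-SWCNT worms and 1534 in control worms (0.070), a value that changed sign between scalings. The remaining 171840_x_at had 10.4 in a-SWCNT worms and 5.52 in control worms, under the floor on each array. The mean of the measured probe sets was 0.31, and they differed by 0.48.

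The linker gene erm-1 gave opposite readings. Probe set 189677_s_at had 1096 in a-SWCNT worms and 704 in control worms, 1.56-fold higher (log2 ratio 0.64), whereas 175003_at had 607 in a-SWCNT worms and 888 in control worms, 1.46-fold lower (-0.55). Both signs held in all 6 scalings. The gene's mean of 0.045 therefore describes neither probe set. Their difference of 1.19 is large for this array, since 8.06% of the 1626 genes with 2 measured probe sets had a larger one.

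The lower erm-1 probe set belongs to the lowest-numbered probe sets of the array, with identifiers from 171720 to 175999. In 1455 genes that had measured probe sets both inside and outside this range, the log2 ratio inside was lower by a median difference of -0.34 and was lower in 1040 genes (71.5%). For erm-1 the difference was -1.19 and for ifc-2 it was -0.48. This grouping was made after the values were seen, and its part in the readings of both genes was not tested. Of the 14 member probe sets 4 carry such an identifier, and 2 of these were measured. Without the lowest-numbered probe sets, erm-1 stood at 0.64, ifc-2 at 0.55 and the median of the 10 members at 0.32, with that of all genes at 0.017.

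**Figure D2:**
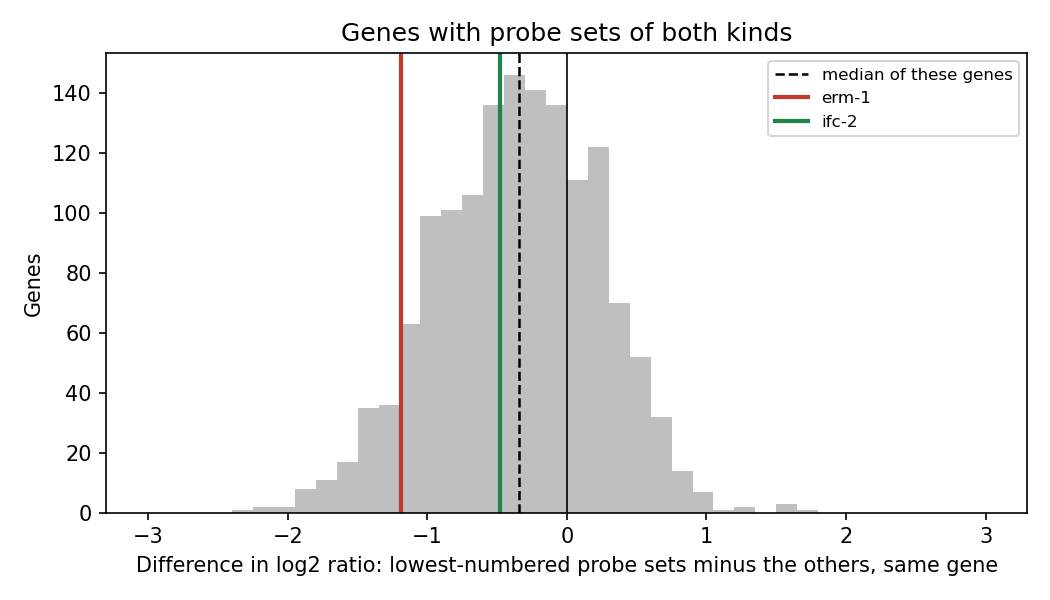
Histogram over 1455 genes of the log2 ratio (a-SWCNT over control) in the lowest-numbered probe sets minus that in the gene's other probe sets, with values beyond 3 drawn at 3. The dashed median lies at -0.34, left of 0, with ifc-2 at -0.48 and erm-1 at -1.19 on the same side.

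Around the members of the endotube, 11 of 12 genes for other intermediate filaments and their intestinal scaffold were measured, 5 above 0 and 6 below, with 0 at 2-fold and a median of -0.013 that changed sign between scalings. The filament gene ifc-1 was highest, with 1153 in a-SWCNT worms and 666 in control worms (log2 ratio 0.79), followed by ifp-1 with 407 in a-SWCNT worms and 284.5 in control worms (0.52). The epidermal filament gene ifb-1 was lowest at -0.70, the mean of -1.16 in a lowest-numbered probe set and -0.23 in the other, and ifa-4 had -0.47. Split by tissue after the values were seen, the 6 filament genes of the intestine, members included, had a median of 0.36 with 4 above 0 and 2 below. The 4 measured filament genes of other tissues had a median of -0.24 with 1 above 0 and 3 below. Over the 6 scalings the intestinal median ran from 0.17 to 0.49 and the other from -0.44 to -0.12. Without lowest-numbered probe sets the medians were 0.46 for the intestinal genes and -0.12 for the others. Among these, ifd-1 had 0.41 and ifd-2 had -0.28. The scaffold genes, likewise picked after their values were seen, gave 0.40 for bbln-1, -0.12 for ifo-1, the organiser of intestinal filaments, and -0.42 for the kinase gene sma-5, so they did not share a direction.

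Genes of actin and microvilli other than act-5 were lower, in 7 of 8 measured cases, with 1 gene at least 2-fold lower, 0 higher and a median of -0.37. The muscle actin gene act-3 had 1834 in a-SWCNT worms and 3799 in control worms, 2.07-fold lower (log2 ratio -1.05). It fell short of 2-fold with equal medians (-0.98) and equal 75th percentiles (-0.92). The tropomyosin gene lev-11 had -0.75, nfm-1 had -0.12 and unc-115 had 0.16. The actin gene act-4, picked after its value was seen, had 4533 in a-SWCNT worms and 6272 in control worms (-0.47). The probe sets of act-3 and act-4 are lowest-numbered ones and that of act-5 is not. Without lowest-numbered probe sets, 5 genes of the list were measured, 3 above 0 and 2 below, at a median of 0.028. The actins are near-identical in sequence, so signal of one may be read by the probe set of another. EPS-8, which caps actin at microvillus tips, was read by 3 measured probe sets, at log2 ratios of -1.29 in a lowest-numbered one and -0.20 and 0.69 in the others, a gene also picked after its values were seen.

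Apical polarity and junction genes lay below 0 in most cases. Of 12 measured genes 3 were above 0 and 9 below, with 0 at 2-fold and a median of -0.36, which stayed below 0 in all 6 scalings. The polarity scaffold gene par-3 (-0.62) and the junction gene ajm-1 (-0.54) were lowest, and the β-catenin gene hmp-2 (0.53) and dlg-1 (0.14) highest among genes measured on both arrays. The catenin gene jac-1, measured in a-SWCNT worms alone and picked after its value was seen, had 0.31 as a lower bound. The value of dlg-1 is the mean of -0.51 in a lowest-numbered probe set and 0.79 in the other. Without lowest-numbered probe sets 10 genes were measured, 4 above 0 and 6 below, at a median of -0.038.

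**Figure D3:**
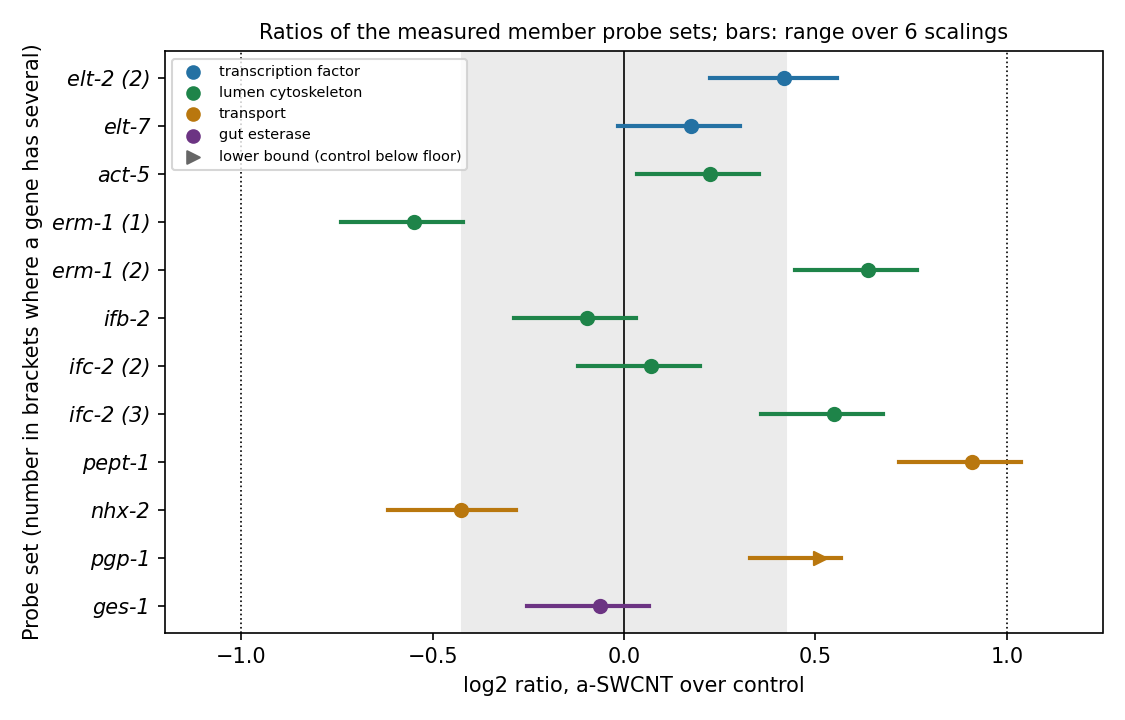
Log2 ratio of a-SWCNT over control for the 12 measured member probe sets, coloured by role, with bars for the range over 6 scalings, dotted lines at 2-fold and a grey band for the median difference of 0.42 between probe sets of a gene. The point for pept-1 lies furthest right at 0.91 and the triangle for pgp-1 is a lower bound; erm-1 appears on both sides of 0.

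Transport genes held both ends of the range. PEPT-1 is the apical carrier that takes up di- and tripeptides with protons. Its signal was 701 in a-SWCNT worms and 373 in control worms, 1.88-fold higher (log2 ratio 0.91), and 97.9% of measured genes had a lower ratio. It was the 1 member at least 1.5-fold higher, a size reached by 8.04% of measured genes, and 0 members were at least 1.5-fold lower, against 11.6%. Over the 6 scalings its ratio lay between 0.72 and 1.04, passing 2-fold with equal 75th percentiles, as 2.31% of measured genes then did. As deposited, before any scaling, its signal was lower in a-SWCNT worms, at 279.7 against 372.9 in control worms.

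NHX-2, the apical sodium-proton exchanger that supports peptide uptake by PEPT-1, went the other way. Its signal was 132 in a-SWCNT worms and 177 in control worms, 1.34-fold lower (log2 ratio -0.43), and it stayed between -0.62 and -0.28 over the 6 scalings. PGP-1, a P-glycoprotein pump of the apical membrane that expels foreign compounds, had 80.9 in a-SWCNT worms and 56.4 in control worms. The control signal was just below the floor, so its probe set is at least 1.43-fold higher (0.51), in the dim range of the array. The carrier and the exchanger of the same membrane thus differed in direction.

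Among other genes for peptide, proton and amino acid transport, 15 of 21 were measured, 8 above 0 and 7 below, with a median of 0.22 that turned to -0.019 with equal hybridisation controls. At least 2-fold higher was 1 gene, vha-6, the apical proton pump subunit of the intestine, with 2500 in a-SWCNT worms and 1160 in control worms (log2 ratio 1.11). Its ratio fell short of 2-fold under loess, at 0.995, and with equal hybridisation controls, at 0.92. The basolateral exchanger gene pbo-4 had 610 in a-SWCNT worms and 312 in control worms (0.96). At least 2-fold lower was 1 gene, pept-2, a peptide transporter gene related to pept-1, with 87.7 in a-SWCNT worms and 195 in control worms (-1.15). The gene pept-3 had -0.21, with probe sets on both sides of 0. They stood at -0.57 in a lowest-numbered one, under the floor in a-SWCNT worms, and 0.14 in the other. Further exchanger genes, picked for their family, had 0.38 for nhx-3, 0.60 for nhx-6 and -0.11 for nhx-9. The peptide transporter genes and the exchanger genes thus each took both signs.

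Pump genes related to pgp-1 were measured in 12 of 19 cases, 8 above 0 and 4 below, with 0 at 2-fold and a median of 0.31 that stayed above 0 in all 6 scalings. Highest were mrp-2, with 103 in a-SWCNT worms and 64.8 in control worms (log2 ratio 0.67), and pgp-9 (0.65), and lowest were mrp-4 (-0.95, from a lowest-numbered probe set) and pgp-14 (-0.43). The value of pgp-14 is the mean of -0.77 in a lowest-numbered probe set, under the floor in a-SWCNT worms, and -0.081 in the other. Most of these signals were dim, and 7 of the 19 genes were below the floor on both arrays.

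**Figure D4:**
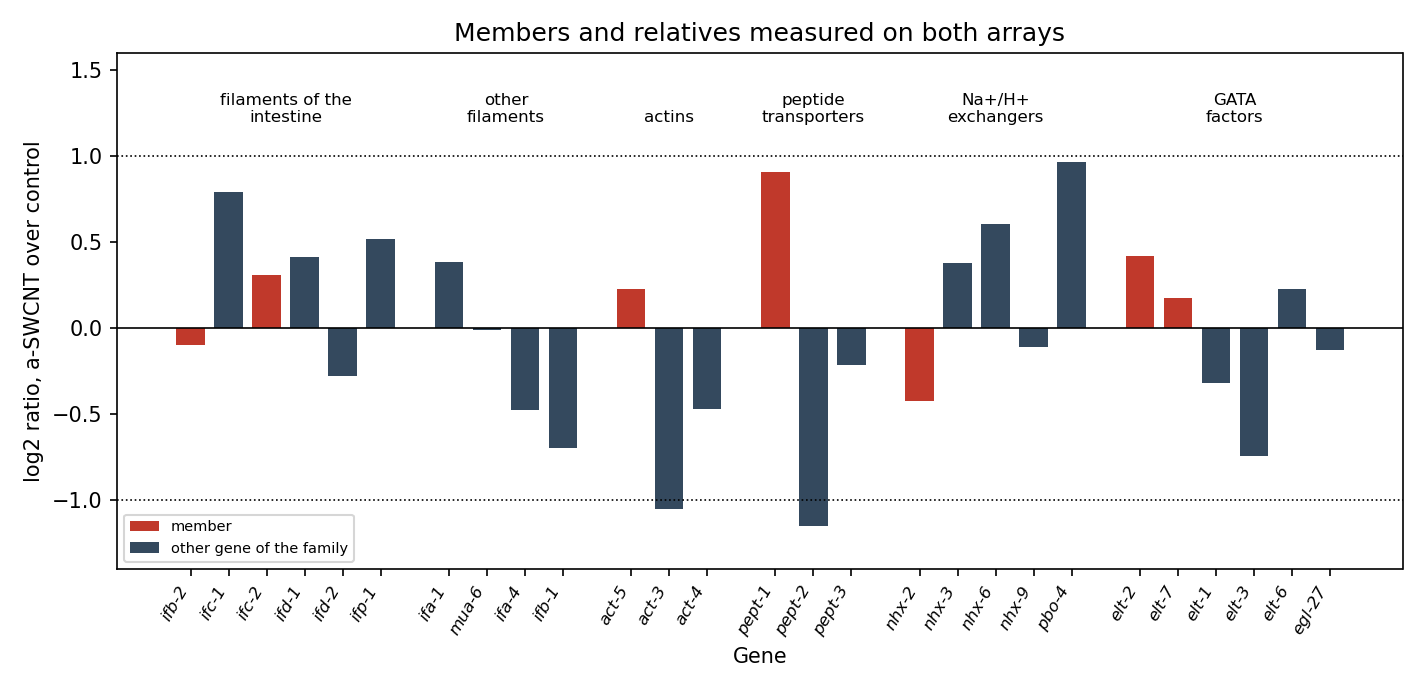
Log2 ratio of a-SWCNT over control (y axis) for members (red) and related genes measured on both arrays (blue), grouped by family, with dotted lines at 2-fold. Relatives take both signs within most families, with pept-1 at 0.91 beside pept-2 at -1.15 and act-5 at 0.23 beside act-3 at -1.05.

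The gut esterase gene ges-1, long used as a marker of the differentiated intestine and a target of GATA factors, was level. Its signal was 523 in a-SWCNT worms and 546 in control worms, 1.04-fold lower (log2 ratio -0.063), and its sign depended on the scaling. Of 8 other genes whose intestinal expression has been linked to GATA sites or ELT-2, 5 were above 0 and 3 below, at a median of 0.15 that turned to -0.042 with equal hybridisation controls. At least 2-fold lower was 1 of them, the yolk protein gene vit-2, with 116 in a-SWCNT worms and 359 in control worms (-1.63). Next lowest was the metallothionein gene mtl-1 (-0.74), read by a lowest-numbered probe set, and the highest were spl-1, for sphingosine-1-phosphate lyase (0.77), and mtl-2 (0.64). The pair mtl-1 and mtl-2 therefore differed in direction.

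In order of log2 ratio the members ran pept-1, pgp-1, elt-2, ifc-2, act-5, elt-7, erm-1, ges-1, ifb-2 and nhx-2. The largest gap between neighbours in this order was 0.40. Sorting brings close values together, so this gap does not tell whether the members differ. The ends of the order stood at 0.91 for pept-1 and -0.43 for nhx-2. Set against the quartiles of all measured genes (-0.33 and 0.26), 4 members lay above, 5 between and 1 below.

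Marker genes of other tissues had these median log2 ratios, -0.47 for body wall muscle (4 of 5 measured), -0.43 for pharynx (4 of 5), -0.33 for germ line (5 of 5), -0.32 for neurons (5 of 5) and 0.11 for hypodermis (5 of 5), the last with a sign that depended on the scaling. At least 2-fold lower were the muscle myosin gene unc-54 (-1.02), the pharyngeal myosin gene myo-2 (-1.30) and the germline gene gld-1 (-1.38). The value of gld-1 is from a lowest-numbered probe set, and unc-54 fell short of 2-fold with equal medians (-0.95) and equal 75th percentiles (-0.90). Among all measured genes 2.86% were at least 2-fold lower. Above 0 lay unc-22 of muscle (0.032), tnc-2 of pharynx (0.48) and pgl-1 of germ line (0.14), the 1 such gene of each list. Of the hypodermis markers 3 lay above 0, and of the neuron markers 0. No marker was at least 2-fold higher (0 genes), and ceh-22 of the pharynx and hlh-1 of muscle were below the floor on both arrays. With the scaling used, signals were summed over all probe sets of each list. The sum in a-SWCNT worms was between 0.683 of that in control worms, for muscle, and 0.994, for hypodermis. For the 10 intestinal members it was 1.11, and act-5 gave 4347 and ifb-2 2872 of their 13700.5 in a-SWCNT worms. Such ratios move with the scaling factor, which was 2.50 here and 2.19 with equal hybridisation controls. Without lowest-numbered probe sets the marker medians were -0.45 for muscle (4 measured), -0.31 for pharynx (4) and -0.23 for germ line (4, with gld-1 dropping out). They were -0.13 for neurons (5) and 0.14 for hypodermis (3). The part of tissue make-up in the members' ratios was not tested.

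**Figure D5:**
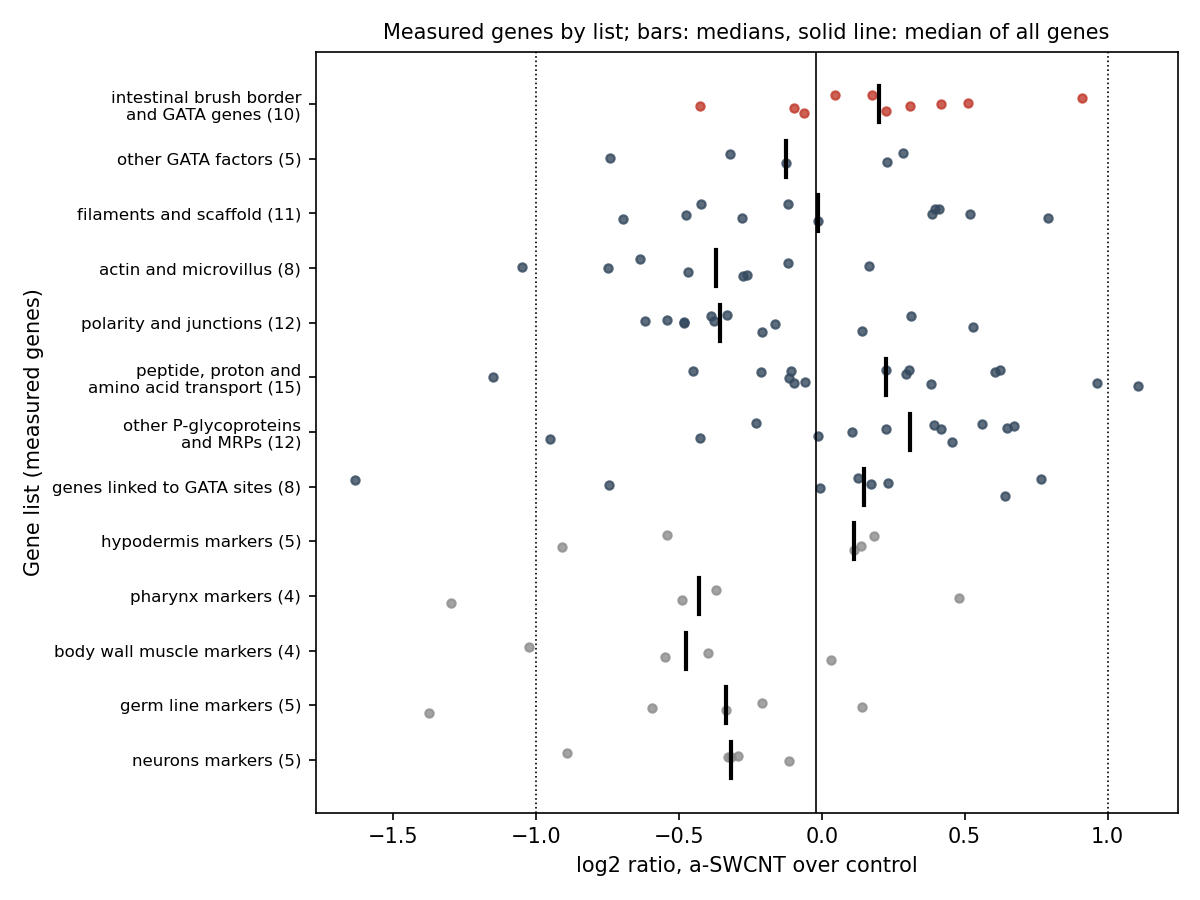
Log2 ratio of a-SWCNT over control for each measured gene (points) by list, with black bars for list medians, a solid line at the median of all genes (-0.021) and dotted lines at 2-fold. The bar of the intestinal members (red) lies at 0.20, and the bars of muscle, pharynx, germ line and neuron markers lie between -0.47 and -0.32.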

How the data were processed

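Values were deposited as linear intensity, 1 per probe set and array, computed with MAS5 per the submitters' processing notes, from biotin-labelled cRNA of 6 ug total RNA per the labels' protocols. The sources used here give no MAS5 version, scaling target or detection calls. Of 22625 probe sets, 77 were control probe sets, and 20766 of the 22548 worm probe sets had 1 gene. The a-SWCNT signals were multiplied by 2.50 to match means trimmed by 2% at each end. A gene was given the average log2 ratio over its probe sets measured on at least 1 array. Called means at least 2-fold. Members and lists were chosen with earlier results of these data known. Named genes were the members and, in each list except the tissue markers, genes at 2-fold and the 2 highest and 2 lowest measured on both arrays. Tissue markers were named where they were at 2-fold, below the floor on both arrays, or above 0 in muscle, pharynx or germ line. Symbols were matched by identifier to a WBcel235 gene table (20701 of 20766). Alternatives covered scaling, floor, threshold and probe set choice. Computation used Python 3.11.15, numpy 2.4.6, pandas 2.3.3 and statsmodels 0.14.6, tested on simulated data. Sequences were not used here.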

Additional observations from a re-analysis of the deposited data

How the results depend on the processing

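The members' median log2 ratio of 0.20 was between 0.0090 (equal hybridisation controls) and 0.33 (equal 75th percentiles) over the 6 scalings, between 0.11 and 0.18 under other floors, 0.24 without letter-suffix probe sets (6 members left) and 0.32 without the lowest-numbered probe sets, a setting chosen after seeing the data. It lay 0.12 to 0.23 above the median of all genes in the 6 scalings. As deposited, without scaling, it reversed to -1.12, with 7 members at least 2-fold lower, where the median of all genes was -1.16. With equal 75th percentiles 1 member was at least 2-fold higher (2.31% of all genes), and at 1.5-fold also 1. The share of all genes called either way was 4.27%, and became 19.6% at 1.5-fold, 0.618% at 3-fold, 62.0% as deposited, 7.89% with the floor at the 25th percentile and 23.4% with no floor. Of genes called, 66.8% were lower with the scaling used, against 53.2% with equal medians, 43.5% with equal 75th percentiles, 51.6% after quantile normalisation, 53.9% by loess and 87.5% with equal hybridisation controls. As deposited, 8 probe sets reversed, to -1.10 (act-5), -0.91 (elt-2), -1.15 (elt-7), -0.69 (erm-1), -1.25 and -0.78 (ifc-2), -0.41 (pept-1) and -0.70 (pgp-1). Small ratios also changed sign, with elt-7 at -0.016 and ifc-2 at -0.12 with equal hybridisation controls, ifc-2 at -0.038 under loess and -0.015 after quantile normalisation, ges-1 at 0.065 (75th percentiles), 0.0087 (medians) and 0.014 (quantile), and ifb-2 at 0.032 (75th percentiles). The cause was not tested beyond the scaling factors themselves. With the floor at the 75th percentile 7 members stayed measured. Of the members 8 rest on 1 measured probe set. No paired analysis was possible because each group has 1 array.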

Other observations

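The lower log2 ratios of the lowest-numbered probe sets were seen across the array and not only in erm-1 and ifc-2. The 2942 measured probe sets of this range had a median of -0.21, and the 9079 others had 0.011. Within genes that had both kinds, the median difference was -0.34 with the scaling used, -0.35 with equal medians, -0.34 in each of quantile normalisation, loess and equal hybridisation controls, and -0.30 as deposited. How these probe sets were designed was not given in the sources used here, and the cause was not tested.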
